A study of Cavia porcellus with 10 samples.

Results

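The genes described here are those of protein folding in the endoplasmic reticulum (ER) and of the unfolded protein response, followed in the guinea pig cervix from estrus to the end of pregnancy. They were chosen by name from a list of 48 gene symbols, and 46 of these name a gene among the 25028 of the deposited table. The symbols EDEM3 and SELS name none, although the gene of selenoprotein S stands in the table under its other symbol, VIMP, and is given apart from the 46. By role the 46 are 9 lumenal chaperones and their partners, 2 lectin chaperones, 8 protein disulfide isomerases and related proteins, 8 stress sensors and transcription factors, 8 factors of ER-associated degradation, 8 components of the translocon and signal peptidase, and 3 coat proteins of the vesicles that leave the ER.

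The study compared cervical tissue of Hartley guinea pigs at 3 reproductive stages. The non-pregnant animals were in estrus (NP, n = 3) and were taken on the day after the membrane that closes the vulva had disappeared. The mid-pregnant animals (MT, n = 3) were at an estimated 43.6 ± 0.5 days (mean ± SD) and the late pregnant animals (LT, n = 4), which were not in labor, at 65.2 ± 1.2 days. Gestational age was estimated after death from the size of the fetuses, and no animal received a treatment. The tissue was the vaginal portion of the cervix, a mixture of stroma, smooth muscle, epithelium, vessels and immune cells, so that fewer cells of a type and less RNA per cell cannot be told apart.

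Secreted and membrane proteins enter the ER through the translocon, where the signal peptide is cut off, sugars are attached and chaperones and disulfide isomerases fold the chain. When unfolded protein accumulates, the sensors IRE1 (gene ERN1), PERK (gene EIF2AK3) and ATF6 start the unfolded protein response, which raises chaperones, degradation factors and export machinery through the transcription factors XBP1, cleaved ATF6 and ATF4. In secretory cells the same machinery also grows with the load of secreted protein. In pregnancy the cervix makes the mucus that seals its canal and remodels its collagenous matrix.

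Relative RNA abundance is given in TPM, counts corrected for transcript length and scaled to sum to 1000000 transcripts in each animal, from 18730665 to 27881572 reads counted on genes per animal. Genes were tested with limma on log2(TPM + 1), where 1 TPM was added to every value, and a gene was called when its p-value, adjusted over the 12645 genes that reached a mean of 3 TPM in at least 1 stage, was under 0.05. Fold changes are on this log2 scale and have their standard error (SE). On this scale the median gene moved by -0.14 (NP to MT), -0.16 (MT to LT) and -0.28 (NP to LT), and with the read counts scaled by edgeR it moved by -0.03, 0.00 and -0.01. A log2 fold change of 0 in TPM is therefore above the median gene. The comparisons NP to MT and MT to LT share the MT animals.

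All 46 genes passed the abundance filter. Their mean over the 10 animals ran from 16.5 TPM (DERL3) to 1237 TPM (CALR), with a median of 116 TPM against 23.3 TPM over all genes tested. Together they took 0.68% ± 0.0339 (SD, n = 3) of all TPM in NP, 0.899% ± 0.0969 (n = 3) in MT and 1.08% ± 0.06 (n = 4) in LT. The share ran from 0.659 to 0.719% in NP, from 0.803 to 0.996% in MT and from 1.01 to 1.13% in LT, without overlap between stages.

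From NP to MT, 20 of the 46 genes (43.5%) rose and 0 fell, against 6.27% higher and 12.2% lower among all genes tested, and the median change of the 46 was 0.36. Without NP replicate 1, 22 rose and 2 fell (DDIT3 and DERL3). At the next step, from MT to LT, 14 rose (30.4%) and 2 fell, against 6.73% higher and 22.7% lower among all genes, with a median of 0.15. Over the whole interval, from NP to LT, 35 rose (76.1%) and 1 fell, against 11.2% and 41.9%, with a median of 0.49. Among the 7799 genes at least as abundant as the least abundant of the 46, the shares that rose were 7.37, 7.35 and 14.1%. Without any overlap between the animals of the 2 stages, 27 were higher and 0 lower from NP to MT (11.4% and 23.5% of all genes), 14 and 3 from MT to LT (10.8% and 35.5%) and 32 and 1 from NP to LT (11.8% and 40.6%). With edgeR on the read counts the numbers that rose and fell were 23 and 0, 18 and 2, and 42 and 0, against 10.1% and 7.98%, 13.4% and 15.6%, and 23.6% and 25.8% of all genes. Every gene of the 46 called by limma was also called by edgeR, except DDIT3 from NP to LT, and no called gene had the opposite sign. An exact permutation test of the F statistic over the 3 stages, adjusted over all genes, passed for 33 of the 46 (71.7%) and for 47.1% of all genes.

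**Figure D1:**
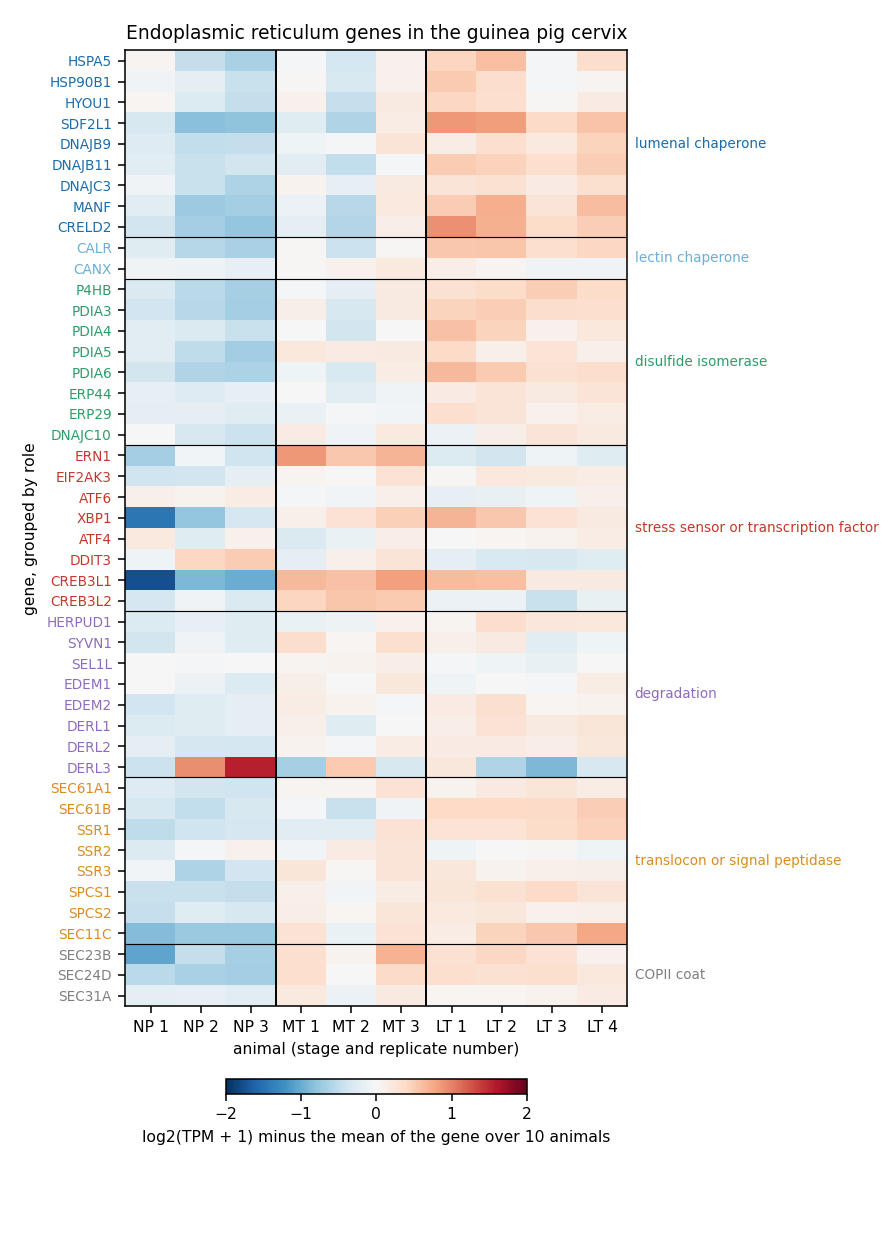
Log2(TPM + 1) of the 46 genes (vertical, grouped and coloured by role) in the 10 animals (horizontal, by stage and replicate number), each minus the mean of its gene over the 10 animals, with red above and blue below that mean. SDF2L1, DNAJB11, MANF and CRELD2 are reddest in the 4 LT animals, ERN1 and CREB3L2 in the 3 MT animals, and DERL3 in NP replicate 3.

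Most of the sensors and transcription factors were called at the first step. From NP to MT, 5 of these 8 genes rose (ERN1, EIF2AK3, XBP1, CREB3L1 and CREB3L2), against 6.27% of all genes. From MT to LT none of them rose and 2 fell (ERN1 and CREB3L2). The 2 falls are 25% of the 8, near the 22.7% of all genes that fell at this step. ERN1 (ENSCPOG00000000570) encodes IRE1, the kinase and nuclease that splices XBP1 messenger RNA. It had 9.52, 15.3 and 11.8 TPM in the NP animals, 29.7, 23.6 and 25.9 in MT, and 12.9, 12.1, 14.9 and 13.2 in LT. The 3 MT animals stood above all others and NP and LT overlapped. ERN1 rose by 1.07 ± 0.16 (SE) from NP to MT (adjusted p = 0.00253, limma) and fell by 0.94 ± 0.15 from MT to LT (adjusted p = 0.00346), and the NP to LT difference was 0.13 with a 95% interval of -0.21 to 0.47 in TPM.

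CREB3L2 (ENSCPOG00000008872), a membrane-bound transcription factor of the ER that promotes secretory transport, followed the same course. It stood at 36.3, 43.6 and 37.7 TPM in NP, 62.7, 68 and 66.6 in MT and 42.5, 42.4, 33.7 and 41.6 in LT. MT was again separate from both other stages, with a rise of 0.74 ± 0.11 (adjusted p = 0.00259, limma), after which it fell by 0.71 ± 0.10 (adjusted p = 0.00282). Its NP to LT difference in TPM was 0.03, with a 95% interval of -0.20 to 0.26. The edgeR fit also called ERN1 and CREB3L2 higher in LT than in NP.

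CREB3L1 (ENSCPOG00000010073, also called OASIS), a related factor known for the secretion of collagen, had the largest rise of the 46 from NP to MT. Its values were 36.9, 67.8 and 63.5 TPM in NP, 200, 190 and 224 in MT, and 196, 192, 144 and 143 in LT. Every pregnant animal was above every NP animal, by 1.89 ± 0.22 in MT (3.65-fold by the means, adjusted p = 0.000958, limma) and by 1.61 ± 0.21 in LT (adjusted p = 0.000315). Between MT and LT the change was -0.29 ± 0.21 and was not called (adjusted p = 0.308).

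XBP1 (ENSCPOG00000007796) is the transcription factor that IRE1 activates by splicing, and it drives ER expansion in secretory cells. Its abundance was 233, 373 and 508 TPM in NP, 683, 783 and 891 in MT, and 1027, 931, 781 and 725 in LT. The NP animals spread widely and all lay below the pregnant ones, while MT and LT overlapped. XBP1 rose by 1.14 ± 0.25 from NP to MT (2.12-fold, adjusted p = 0.0134, limma) and was higher in LT than in NP by 1.28 ± 0.24 (adjusted p = 0.00165), with 0.13 ± 0.24 from MT to LT (adjusted p = 0.691). Without MT replicate 3 the NP to MT rise was 1.05 with an adjusted p of 0.0569, the highest of all alternatives, which started at 2.07e-06. The counts are per gene, so that spliced and unspliced XBP1 were not separated.

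EIF2AK3, which encodes the kinase PERK that phosphorylates eIF2 alpha, ran from 21.5 to 25.3 TPM in NP, from 29 to 35.6 in MT and from 29.2 to 33.6 in LT. The pregnant stages did not overlap with NP, and the rise from NP to MT was 0.44 ± 0.11 (adjusted p = 0.0205, limma). ATF4 and DDIT3, downstream of PERK, were not called higher in any comparison. ATF4 (ENSCPOG00000022485), the factor whose translation PERK favours, had 528, 389 and 487 TPM in NP, 377, 418 and 505 in MT and 462, 474, 481 and 508 in LT. All 3 stages overlapped, and its change from NP to LT was 0.05 with a 95% interval of -0.23 to 0.33.

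DDIT3 (ENSCPOG00000012871) encodes CHOP, the factor tied to cell death under lasting ER stress. It was at 34.8, 49.9 and 53 TPM in NP, 32.4, 39.9 and 44.6 in MT and 32.7, 29.9, 29.5 and 31.3 in LT. The 4 LT animals lay below the 3 NP animals and the MT animals overlapped both. From NP to LT DDIT3 fell by 0.54 ± 0.15 on log2(TPM + 1) (adjusted p = 0.0139, limma), but relative to the median gene the difference was -0.26, and the call was lost with edgeR (-0.27, adjusted p = 0.116) and with DESeq2 (-0.26, adjusted p = 0.122). The adjusted p-values of its alternatives ran from 0.000882 to 0.159. ATF6, the sensor that is cut in the Golgi to a transcription factor, lay between 32.1 and 40.2 TPM in all 10 animals and was called in no comparison by limma.

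**Figure D2:**
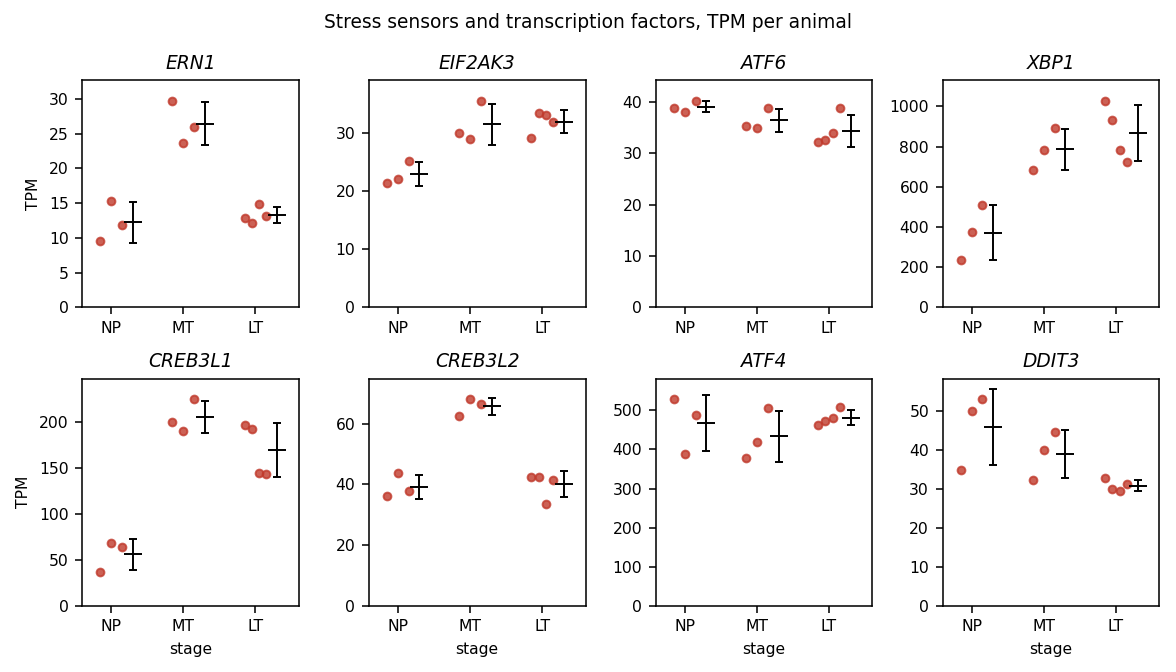
TPM (vertical, from 0) of the 8 stress sensors and transcription factors by stage (horizontal). Points are animals, and the bar beside them is the mean with its SD (n = 3, 3 and 4). ERN1 and CREB3L2 peak in MT, XBP1 and CREB3L1 stay high in LT, and ATF4 overlaps between the stages.

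All 9 lumenal chaperones were higher in LT than in NP by limma, against 11.2% of all genes. From NP to MT 1 of them (DNAJB9, 11.1%) was already called, against 6.27% of all genes. From MT to LT 4 rose (SDF2L1, DNAJB11, MANF and CRELD2), or 44.4%, against 6.73%. The summed abundance of the 9 ran from 970 to 1359 TPM in NP, from 1129 to 1558 in MT and from 1523 to 2044 in LT. In the LT animals HSPA5 and HSP90B1 supplied most of it.

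HSPA5 (ENSCPOG00000012520) encodes BiP, the central chaperone of the ER and the gene most used to read the stress response. It had 485, 337 and 299 TPM in NP, 462, 368 and 500 in MT and 635, 711, 464 and 597 in LT. NP replicate 1 stood above LT replicate 3, so that no pair of stages was fully separate. HSPA5 was higher in LT than in NP by 0.70 ± 0.19 (1.61-fold, adjusted p = 0.0126, limma), and neither step alone was called (adjusted p = 0.387 and 0.114). The NP to LT call was lost without NP replicate 2 (adjusted p = 0.0502) and without NP replicate 3 (0.0552) in a range that started at 0.000245, and the exact F test over the stages gave p = 0.0533.

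SDF2L1 (ENSCPOG00000024279), a lumenal partner of BiP, rose most of the 9. It had 49.7, 34.4 and 35.2 TPM in NP, 52.7, 40.9 and 69 in MT and 114, 112, 81.8 and 92.7 in LT. All 4 LT animals were above the 6 others, by 0.89 ± 0.20 over MT (adjusted p = 0.0101, limma) and by 1.32 ± 0.20 over NP (2.52-fold, adjusted p = 0.000595). CRELD2, a secreted ER stress factor with a disulfide isomerase activity, moved alike, with 50.4, 40.3 and 37.6 TPM in NP, 56.9, 43.1 and 71.2 in MT and 123, 107, 84.1 and 92.1 in LT. LT was again separate, and CRELD2 rose by 0.84 ± 0.19 from MT (adjusted p = 0.0102).

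MANF, a stress-induced protein of the ER lumen that binds BiP, had 92.3, 65.1 and 67.5 TPM in NP, 99.3, 73.6 and 124 in MT and 155, 180, 130 and 166 in LT. Each LT animal exceeded each MT animal, and the rise of 0.69 ± 0.19 from MT to LT (adjusted p = 0.0223, limma) was lost without MT replicate 2 (0.0901) and without LT replicate 2 (0.057) or 4 (0.0546), and with a replicate block in limma (0.0861) and in edgeR (0.072), among alternatives that started at 0.00212. DNAJB11, a J-domain partner of BiP, had 57, 48.1 and 51.2 TPM in NP, 56.1, 46.6 and 64 in MT and 94.5, 91.4, 83.5 and 92.9 in LT. NP and MT overlapped, with a difference of 0.08 (95% interval -0.18 to 0.35), and DNAJB11 rose from MT to LT (0.70 ± 0.11, adjusted p = 0.00337).

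DNAJB9 is a J-domain protein known for holding IRE1 inactive. Its values were 95.6, 81.7 and 82 TPM in NP, 108, 112 and 137 in MT and 127, 145, 131 and 156 in LT. The pregnant animals were all above NP, with a rise of 0.45 ± 0.12 from NP to MT (adjusted p = 0.027, limma) that was lost in 6 of 23 alternatives. HSP90B1 (GRP94, the HSP90 of the ER) had 401, 371 and 310 TPM in NP, 426, 340 and 447 in MT and 608, 536, 411 and 438 in LT. NP and LT were narrowly separate, and the difference of 0.45 ± 0.16 (adjusted p = 0.0347) was lost without NP replicate 2 or 3, without LT replicate 1 or 2 and with quantile normalization (adjusted p from 0.000209 to 0.173 over the alternatives). The remaining pair, HYOU1, which recharges BiP with nucleotide, and DNAJC3, a co-chaperone of BiP, rose from NP to LT by 0.47 ± 0.18 (adjusted p = 0.0482) and by 0.64 ± 0.13 (adjusted p = 0.00279). HYOU1 lost its call in 8 of 23 alternatives.

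**Figure D3:**
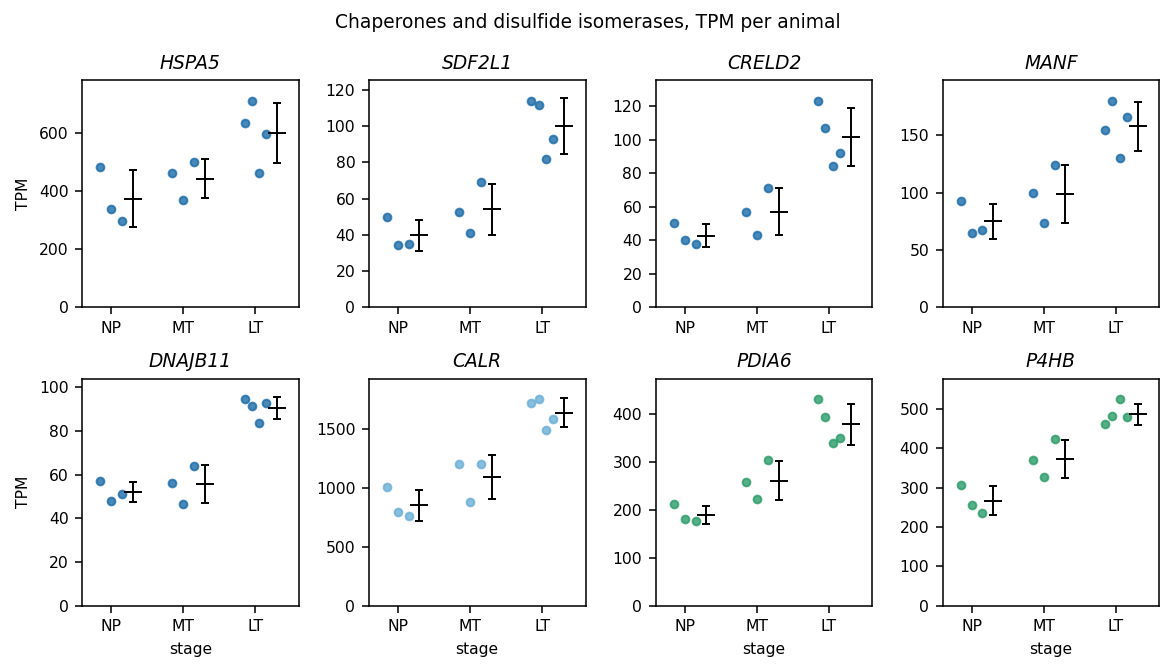
TPM (vertical, from 0) of 8 chaperones and disulfide isomerases by stage (horizontal), with animals as points and the mean ± SD beside them (n = 3, 3 and 4). SDF2L1, CRELD2, MANF and DNAJB11 have their 4 LT animals above all NP and MT animals, and HSPA5 has one LT animal, at 464 TPM, within the range of NP and MT.

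Of the lectin chaperones, which hold glycoproteins until they are folded, the soluble one rose. CALR (calreticulin, ENSCPOG00000000791), the most abundant of the 46, had 1002, 797 and 757 TPM in NP, 1199, 878 and 1197 in MT and 1720, 1747, 1488 and 1580 in LT. LT was separate from both earlier stages, by 0.59 ± 0.14 over MT (adjusted p = 0.0139, limma) and by 0.95 ± 0.14 over NP (1.92-fold, adjusted p = 0.000605). CANX (calnexin), its membrane-bound counterpart, ran from 332 to 427 TPM over all 10 animals and was called in no comparison by limma, with a NP to LT difference of 0.12 (95% interval -0.06 to 0.30). The call of CALR from MT to LT was lost in 1 of 23 alternatives. The edgeR fit called CANX higher in LT than in NP.

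The disulfide isomerases, which form and rearrange disulfide bonds, were called in part at each step. From NP to MT 4 of the 8 were called (P4HB, PDIA3, PDIA5 and PDIA6), from MT to LT 6 (P4HB, PDIA3, PDIA4, PDIA6, ERP44 and ERP29), and all 8 were higher in LT than in NP. Among all genes 6.27, 6.73 and 11.2% rose in these comparisons. Summed, the 8 isomerases ran from 1416 to 1704 TPM in NP, from 1774 to 2266 in MT and from 2540 to 2749 in LT, with no overlap. The first-step calls of P4HB and PDIA3 were each lost in 7 of 23 alternatives and that of PDIA6 in 12.

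P4HB, the classical protein disulfide isomerase and also a subunit of collagen prolyl 4-hydroxylase, had 307, 257 and 235 TPM in NP, 369, 327 and 424 in MT and 461, 482, 524 and 480 in LT. The 3 stages did not overlap, with steps of 0.49 ± 0.12 (adjusted p = 0.0236, limma) and 0.39 ± 0.12 (adjusted p = 0.032). PDIA3 (ERp57), which works with calreticulin and calnexin, had 550, 493 and 450 TPM in NP, 786, 579 and 817 in MT and 987, 1020, 920 and 906 in LT. It too rose at each step without overlap, by 0.53 ± 0.14 (adjusted p = 0.0247) and 0.41 ± 0.13 (adjusted p = 0.0375).

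PDIA6, which attenuates IRE1 signalling besides folding, rose over the interval by a ratio of means of 2, from 212, 181 and 177 TPM in NP through 258, 223 and 304 in MT to 431, 395, 339 and 351 in LT. No stage overlapped another, and the whole difference was 0.99 ± 0.13 (adjusted p = 0.000318, limma). PDIA4 had 149, 142 and 127 TPM in NP, 173, 135 and 173 in MT and 261, 238, 184 and 201 in LT, and rose by 0.46 ± 0.14 from MT to LT (adjusted p = 0.0339). The second steps of P4HB, PDIA3, PDIA4 and PDIA6 were no longer called without MT replicate 2, with adjusted p-values of 0.132, 0.133, 0.139 and 0.0582, the highest of their alternatives, which started at 0.00412, 0.00226, 0.000745 and 0.000153. In all, these second-step calls were lost in 8, 10, 6 and 1 of 23 alternatives.

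PDIA5, a further isomerase, was called at the first step and not at the second. Its values were 49.4, 40.5 and 35.6 TPM in NP, 67.6, 64.9 and 65.6 in MT and 76.1, 62, 70.3 and 62.6 in LT, and it rose by 0.66 ± 0.13 from NP to MT (adjusted p = 0.00734, limma). ERP44, which retrieves unfinished secretory proteins from the Golgi, had 104, 96.6 and 104 TPM in NP, 117, 100 and 111 in MT and 130, 139, 131 and 139 in LT. ERP29, a related protein without isomerase activity, had 184, 182 and 177 TPM in NP, 191, 204 and 201 in MT and 265, 251, 223 and 233 in LT. Both had small spreads and late rises, of 0.30 ± 0.08 (adjusted p = 0.0172) and 0.29 ± 0.08 (adjusted p = 0.022) from MT to LT, which were lost in 2 and 5 of 23 alternatives. DNAJC10, a reductase that serves degradation, had 149, 118 and 110 TPM in NP, 166, 141 and 170 in MT and 136, 161, 178 and 168 in LT. NP and LT overlapped, and the difference of 0.35 ± 0.13 (adjusted p = 0.042) was called in 11 of 23 alternatives.

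ER-associated degradation, which pulls misfolded protein back into the cytosol, had 8 of its genes among the 46. By limma 3 of 8 rose from NP to MT (SYVN1, EDEM2 and DERL2), none was called from MT to LT, and 4 rose from NP to LT (HERPUD1, EDEM2, DERL1 and DERL2). With edgeR the counts were 3, then 3 (HERPUD1, EDEM2 and DERL1), and 7 from NP to LT, all but DERL3. The shares of all genes that rose were 6.27, 6.73 and 11.2% by limma and 10.1, 13.4 and 23.6% by edgeR. The first-step calls of SYVN1 and EDEM2 were lost in 9 and 12 of 23 alternatives. SYVN1 (HRD1), the ubiquitin ligase of the pathway, ran from 26.5 to 32.6 TPM in NP, from 35.3 to 44 in MT and from 29.3 to 39 in LT. It rose by 0.46 ± 0.13 from NP to MT (adjusted p = 0.0404, limma) and its NP to LT difference of 0.22 was not called by limma (adjusted p = 0.169) but was by edgeR (0.52, adjusted p = 0.00342), in a range of alternatives from 8.79e-05 to 0.359. SEL1L, its partner, stayed between 43.6 and 53.2 TPM, and EDEM1, a lectin that takes up misfolded glycoproteins, between 50 and 71.3 TPM, and neither was called by limma.

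HERPUD1, a stress-induced scaffold of the ligase, had 59.9, 64.8 and 61 TPM in NP, 66.4, 67.4 and 77.1 in MT and 75.5, 92.8, 85.1 and 84 in LT. The NP animals lay below all others, and HERPUD1 was higher in LT than in NP by 0.44 ± 0.09 (adjusted p = 0.00298, limma). DERL1, a channel component, had 70.2, 72 and 74.8 TPM in NP, 91.4, 71.8 and 84.5 in MT and 93, 104, 96.7 and 101 in LT, with the LT animals above all others and a NP to LT difference of 0.44 ± 0.09 (adjusted p = 0.0029). DERL2, its paralog, had 65.4, 58.8 and 58.2 TPM in NP, 78.4, 72.2 and 82.8 in MT and 83.1, 83.3, 81.6 and 87.6 in LT, and rose from NP to MT by 0.35 ± 0.08 (adjusted p = 0.0177). EDEM2 ran from 28.2 to 32.9 TPM in NP and from 36.8 to 46.7 in the pregnant animals.

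DERL3, the paralog found in plasma cells and other secretory cells, had higher values in part of the NP animals. It ran from 10.2 to 43.1 TPM in NP, from 8.49 to 20.7 in MT and from 7.04 to 16.7 in LT. The NP spread covered most of the range, and the NP to LT difference of -1.08 ± 0.46 was not called (adjusted p = 0.0717, limma). It was called in 2 of 23 alternatives, without NP replicate 1 (-1.64, adjusted p = 0.00538) and without LT replicate 1 (-1.29, adjusted p = 0.0488), and the adjusted p reached 0.292 in the others. The NP to MT difference of -0.84 was called only without NP replicate 1 (-1.39, adjusted p = 0.0295, limma), among alternatives up to 0.614. VIMP, selenoprotein S of the same retrotranslocation complex, had 49.4, 40.2 and 41.4 TPM in NP, 58.6, 46 and 77.2 in MT and 66.8, 75.9, 77.4 and 92.4 in LT. NP and LT were separate, by 0.82 ± 0.17 (adjusted p = 0.00299).

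At the entry to the ER, 5 of 8 genes rose from NP to MT (SEC61A1, SSR3, SPCS1, SPCS2 and SEC11C), 3 from MT to LT (SEC61B, SSR1 and SPCS1) and 7 from NP to LT, all but SSR2. Among all genes 6.27, 6.73 and 11.2% rose in these comparisons. SEC11C, a catalytic subunit of signal peptidase, rose most of the 8, from 42.2, 46.1 and 45.9 TPM in NP through 95.1, 71 and 95.7 in MT to 86.7, 106, 113 and 134 in LT. All pregnant animals were above NP, by 0.94 ± 0.16 in MT (adjusted p = 0.00492, limma) and 1.26 ± 0.15 in LT (2.46-fold, adjusted p = 0.000243). SPCS1, another subunit of signal peptidase, had 187, 187 and 183 TPM in NP, 274, 246 and 285 in MT and 303, 317, 335 and 307 in LT. The 3 stages did not overlap, and the first step was 0.53 ± 0.08 (adjusted p = 0.00276), while the call of the second step was lost in 10 of 23 alternatives. SPCS2 had 102, 118 and 112 TPM in NP, 153, 144 and 166 in MT and 161, 164, 148 and 151 in LT, and rose by 0.48 ± 0.09 in the first step (adjusted p = 0.00661).

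SEC61A1 and SEC61B are the pore-forming and a small subunit of the same translocon, and they rose at different steps. SEC61A1 had 245, 226 and 221 TPM in NP, 303, 305 and 359 in MT and 307, 331, 346 and 323 in LT. It rose by 0.48 ± 0.09 from NP to MT (adjusted p = 0.00797, limma) and changed by 0.02 ± 0.09 from MT to LT. SEC61B had 126, 112 and 127 TPM in NP, 155, 116 and 150 in MT and 209, 209, 206 and 223 in LT. It changed by 0.19 ± 0.11 in the first step (adjusted p = 0.253) and rose by 0.60 ± 0.11 in the second (adjusted p = 0.00443). The difference between these 2 genes in timing was not tested.

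The translocon-associated proteins are bound to the channel. SSR3 had 169, 114 and 135 TPM in NP, 207, 179 and 210 in MT and 205, 185, 189 and 191 in LT, with a rise of 0.52 ± 0.13 from NP to MT (adjusted p = 0.0231, limma). SSR1 had 119, 128 and 134 TPM in NP, 146, 147 and 208 in MT and 206, 206, 218 and 233 in LT, with a rise of 0.39 ± 0.12 from MT to LT (adjusted p = 0.0408) in which MT replicate 3 overlapped the LT animals. This call of SSR1 was lost in 11 of 23 alternatives, and its first step was 0.37 ± 0.13 (adjusted p = 0.0774, limma). SSR2 ran from 289 to 420 TPM and was called in no comparison by limma.

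The COPII coat packs folded cargo into vesicles bound for the Golgi. SEC23B, an inner coat protein, had 35.6, 53.9 and 47.2 TPM in NP, 94.5, 78.8 and 122 in MT and 93.6, 101, 92.5 and 79.9 in LT. All pregnant animals were above NP, by 1.09 ± 0.18 in MT (2.16-fold, adjusted p = 0.00412, limma), and MT and LT overlapped. SEC24D, the cargo adaptor, had 37.7, 34.9 and 34.3 TPM in NP, 69.9, 55.3 and 72.2 in MT and 70.4, 68.8, 69.4 and 64.2 in LT, a rise of 0.86 ± 0.11 from NP to MT (adjusted p = 0.00116). SEC31A, of the outer coat, had 105, 106 and 102 TPM in NP, 136, 110 and 135 in MT and 122, 123, 125 and 134 in LT. It was called from NP to LT (0.27 ± 0.09, adjusted p = 0.0263, limma), a call lost in 5 of 23 alternatives.

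By the comparisons in which limma called them, the 46 fell into groups of different timing. An early group of 13 was higher from NP to MT and from NP to LT but not called from MT to LT, and it held DNAJB9, PDIA5, EIF2AK3, XBP1, CREB3L1, EDEM2, DERL2, SEC61A1, SSR3, SPCS2, SEC11C, SEC23B and SEC24D. A late group of 10 was called from MT to LT and from NP to LT and held SDF2L1, DNAJB11, MANF, CRELD2, CALR, PDIA4, ERP44, ERP29, SEC61B and SSR1. Both steps were called for 4 (P4HB, PDIA3, PDIA6 and SPCS1), and only the whole interval for 8 (HSPA5, HSP90B1, HYOU1, DNAJC3, DNAJC10, HERPUD1, DERL1 and SEC31A). A call in one step and not in the other does not show that the steps differ, and the difference between steps was not tested. The remaining genes were the 2 that peaked in MT, SYVN1, DDIT3 and 7 called by limma in no comparison (CANX, ATF6, ATF4, SEL1L, EDEM1, DERL3 and SSR2), of which edgeR called CANX, SEL1L, EDEM1 and SSR2 from NP to LT. The groups moved with the fit, since edgeR also called the first step of SSR1, SSR2 and SEC31A and the second step of SEC11C, EDEM2, HERPUD1 and DERL1, and called ERN1, CREB3L2 and SYVN1 but not DDIT3 from NP to LT.

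**Figure D4:**
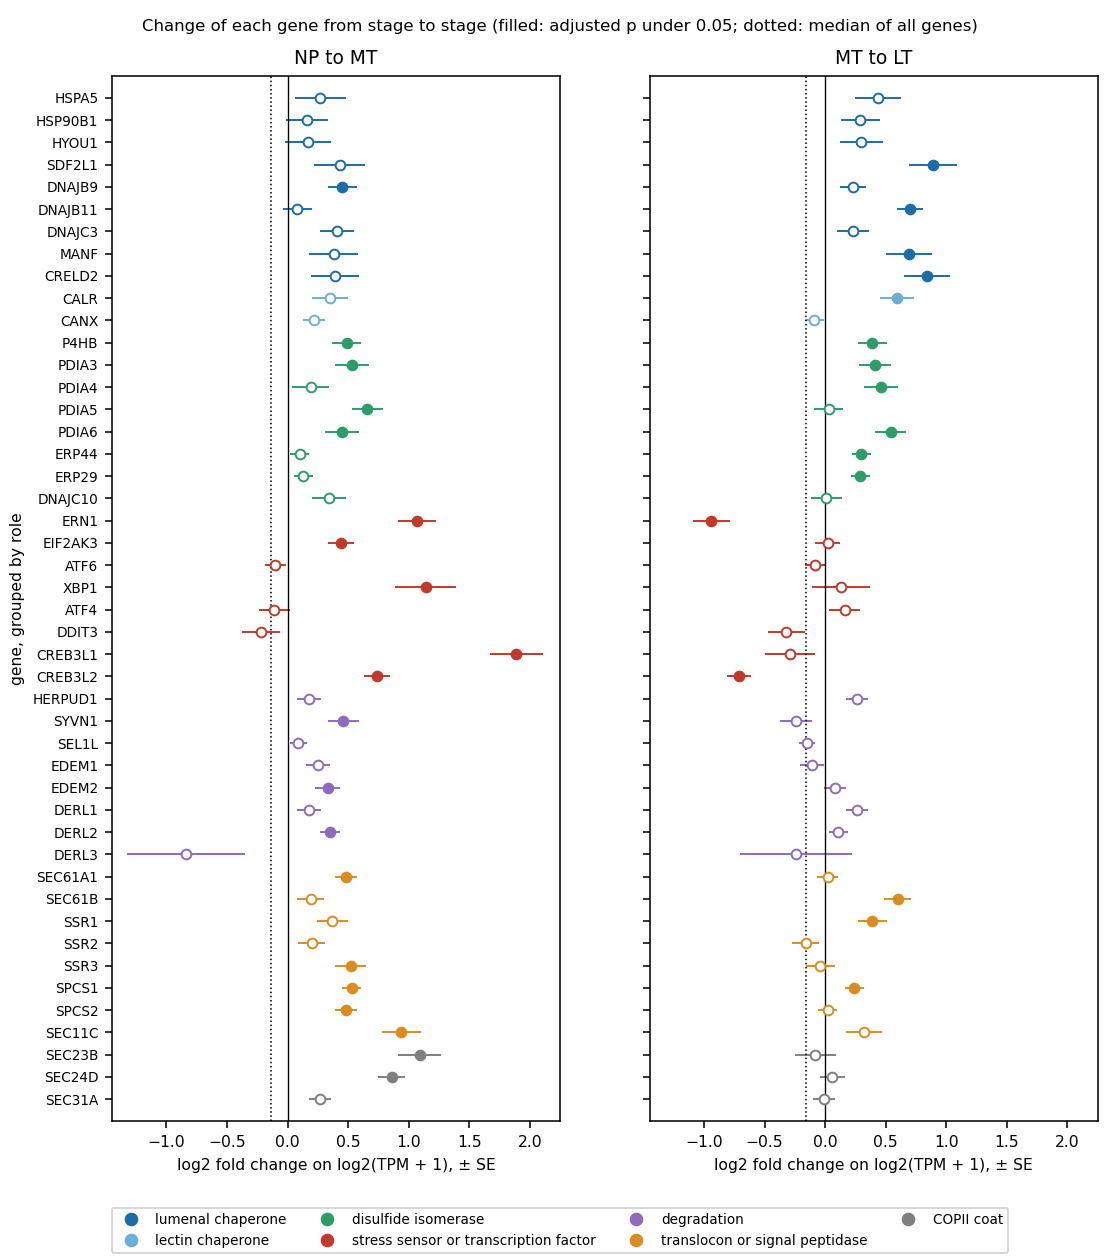
Log2 fold change on log2(TPM + 1) with its SE (horizontal) for the 46 genes (vertical, coloured by role) from NP to MT (left) and MT to LT (right), where filled points have an adjusted p under 0.05 (limma) and the dotted line is the median of all genes tested, at -0.14 and -0.16. CREB3L1 has the largest rise on the left, and ERN1 and CREB3L2 are the only filled points below 0 on the right.

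How firmly a step was called rested in part on single animals and in part on the fit. Over all 23 alternatives, 10 of the 20 calls from NP to MT, 6 of the 16 from MT to LT and 30 of the 36 from NP to LT were kept in each. The calls from NP to MT of EIF2AK3, DERL2 and SSR3 were lost in 3, 5 and 5 alternatives, and that of XBP1 in 1. The 6 kept from MT to LT were those of SDF2L1, DNAJB11, CRELD2, SEC61B, ERN1 and CREB3L2. MT replicate 2 was the lowest MT animal for 32 of the 46 genes and for 8 of the 9 lumenal chaperones, and MT replicate 3 was the highest for 34 of the 46 and for all 9. Without MT replicate 2, 6 genes were called from MT to LT instead of 16, and without MT replicate 3, 10 were called from NP to MT instead of 20. NP replicate 1 was the highest NP animal for all 9 lumenal chaperones, both lectin chaperones and 7 of the 8 disulfide isomerases, and it had the lowest XBP1 and CREB3L1.

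The genes around the 46 were read from 6 further lists, by limma unless edgeR is named. Not every call of these genes was kept over the alternatives. Of all genes, 6.27% rose and 12.2% fell from NP to MT, 6.73% and 22.7% from MT to LT, and 11.2% and 41.9% from NP to LT. With edgeR these shares were 10.1% and 7.98%, 13.4% and 15.6%, and 23.6% and 25.8%. Of 22 other genes of the translocon and N-glycosylation, 8 rose and 0 fell from NP to MT, 1 rose and 2 fell from MT to LT, and 14 rose and 2 fell from NP to LT (19 and 2 with edgeR). The limma shares from MT to LT, 4.55% and 9.09%, were below those of all genes. With edgeR 13 of the list rose and 0 fell from NP to MT, and the balance from MT to LT turned to 7 and 1. SSR4, the most abundant, had 396, 377 and 398 TPM in NP, 534, 484 and 589 in MT and 552, 530, 607 and 572 in LT (0.45 ± 0.09 from NP to MT, adjusted p = 0.0109, limma). The largest rises were those of MAGT1, a subunit of oligosaccharyl transferase (0.58 ± 0.11 from NP to MT), DDOST, another of its subunits (0.23 ± 0.07 from MT to LT), and SPCS3 of signal peptidase (0.72 ± 0.12 from NP to LT). SEC61A2, the second form of the SEC61 alpha subunit, fell by 1.48 ± 0.24 from NP to LT (adjusted p = 0.000853), from 11.1, 17.7 and 16.3 TPM to 5.19, 4.55, 4.69 and 4.25, the direction opposite to that of SEC61A1. SRP9, of the signal recognition particle, rose by 0.32 ± 0.11 over the same interval (adjusted p = 0.0275).

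Of 22 other genes of transport between ER and Golgi, 10 rose and 0 fell from NP to MT, 3 rose and 2 fell from MT to LT, and 13 rose and 1 fell from NP to LT (16 and 1 with edgeR). With edgeR 14 rose and 0 fell from NP to MT, and 9 rose and 1 fell from MT to LT. Among all genes 6.73% rose and 22.7% fell from MT to LT, and 13.4% and 15.6% with edgeR. The cargo receptors TMED10 and TMED2 rose by 0.43 ± 0.08 and 0.54 ± 0.11 in the first step, and MCFD2, which carries glycoproteins with its lectin partner, by 0.74 ± 0.10 (adjusted p = 0.00179, limma). KDELR3, a receptor that returns chaperones from the Golgi to the ER, rose at both steps, from 16.7, 13.1 and 14.7 TPM in NP through 26.4, 16.4 and 25.8 in MT to 36.8, 36.2, 35.7 and 31.9 in LT (1.19 ± 0.16 from NP to LT, adjusted p = 0.000358). Its first step had an adjusted p of 0.0442 by limma, which reached 0.155 over the alternatives. SEC16A, of the ER exit sites, fell by 0.41 ± 0.14 from MT to LT (adjusted p = 0.0498), a call that edgeR did not make, and SEC24B, a paralog of SEC24D, fell by 0.46 ± 0.10 from NP to LT (adjusted p = 0.00384). The SEC24B change was -0.19 with edgeR (adjusted p = 0.0293), and its adjusted p reached 0.185 over the alternatives.

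The other 4 lists had calls in both directions already from NP to MT by limma. Of 19 other folding enzymes, 2 rose and 1 fell from NP to MT, 2 rose and 1 fell from MT to LT, and 5 rose and 2 fell from NP to LT (7 and 1 with edgeR). With edgeR 4 rose and 1 fell from NP to MT, and 5 rose and 0 fell from MT to LT. By limma each of the first 2 comparisons had 10.5% higher and 5.26% lower. Among all genes these shares were 6.27% and 12.2%, then 6.73% and 22.7%. FKBP11, a prolyl isomerase of secretory cells, had the largest rise of the list in all 3 comparisons, from 28.6, 26.8 and 33.5 TPM in NP through 72.2, 59.8 and 121 in MT to 134, 122, 124 and 112 in LT (4.14-fold, 2.02 ± 0.20, adjusted p = 0.00012, limma). PPIB (cyclophilin B) rose by 0.39 ± 0.12 from MT to LT (adjusted p = 0.0383), TXNDC5 was called in no comparison, PRKCSH (glucosidase II beta subunit) fell by 0.34 ± 0.11 from MT to LT by limma but not by edgeR, and ERO1B, an oxidase that recharges disulfide isomerase, fell by 0.91 ± 0.13 from NP to LT (adjusted p = 0.000412). From MT to LT the adjusted p of FKBP11 was 0.049 by limma and reached 0.189 over the alternatives, and that of PPIB reached 0.153.

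Of 14 genes of collagen folding and hydroxylation, 1 rose and 1 fell from NP to MT, 0 rose and 2 fell from MT to LT, and 1 rose and 4 fell from NP to LT, a balance that turned to 3 and 0 with edgeR. As limma shares these are 7.14% and 7.14%, 0% and 14.3%, and 7.14% and 28.6%. All are near or below those of all genes (6.27% and 12.2%, 6.73% and 22.7%, and 11.2% and 41.9%). With edgeR 1 rose and 0 fell from NP to MT, and 0 rose and 1 fell from MT to LT. SERPINH1, the collagen chaperone HSP47, had 431, 370 and 383 TPM in NP, 387, 309 and 300 in MT and 476, 374, 334 and 351 in LT and was called in no comparison. FKBP9 rose by 0.42 ± 0.12 and then fell by 0.45 ± 0.11, the fall being lost with edgeR, and FKBP10 was higher in LT than in NP by 0.35 ± 0.12. P3H2, a prolyl 3-hydroxylase, fell by 0.78 ± 0.23 from NP to MT (adjusted p = 0.0394, limma), a call that edgeR did not make, and FKBP14 by 0.57 ± 0.14 from MT to LT (adjusted p = 0.0156).

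Of 17 other degradation genes, 3 rose and 1 fell from NP to MT, 0 rose and 1 fell from MT to LT, and 4 rose and 3 fell from NP to LT, against 13 and 0 with edgeR. With edgeR 6 rose and 1 fell from NP to MT, and the balance from MT to LT turned to 5 and 0. Among all genes 6.27, 6.73 and 11.2% rose and 12.2, 22.7 and 41.9% fell by limma. OS9, a lectin of the pathway, and VCP, the ATPase that extracts the substrate, were called in no comparison by limma. HM13 (signal peptide peptidase) rose by 0.49 ± 0.09 from NP to MT (adjusted p = 0.00589, limma), UFD1, a cofactor of VCP, fell by 0.47 ± 0.09 (adjusted p = 0.00654), and the ligase RNF5 fell by 0.35 ± 0.08 from MT to LT (adjusted p = 0.0136), which edgeR did not call.

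Of 17 other stress regulators and targets of ATF4 or CHOP, 2 rose and 1 fell from NP to MT, 2 rose and 2 fell from MT to LT, and 3 rose and 7 fell from NP to LT, against 9 and 3 with edgeR. The 7 falls are 41.2% of the list, near the 41.9% of all genes. Among all genes 6.27% rose and 12.2% fell from NP to MT, and 6.73% and 22.7% from MT to LT. With edgeR 2 genes of the list rose and 1 fell from NP to MT, and 2 rose and 0 fell from MT to LT. CREB3L4, a further factor of the CREB3 family, rose from 11.9, 20 and 22.5 TPM in NP to 83.9, 68.2 and 86.1 in MT and stood at 79.6, 91.8, 67.9 and 68.7 in LT. All pregnant animals were far above NP (2.11 ± 0.21 from NP to MT, 4.37-fold, adjusted p = 0.000466, limma). WFS1 (wolframin), a membrane protein of the ER induced by XBP1, had 75.3, 47.5 and 44.3 TPM in NP, 135, 182 and 160 in MT and 75, 79.8, 122 and 97 in LT. It peaked in MT like ERN1, with a rise of 1.52 ± 0.23 (adjusted p = 0.00251) and then fell by 0.78 ± 0.21 (adjusted p = 0.0235), a fall that edgeR did not call.

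Of the 24 genes of this list, 21 were in the table and 17 passed the filter on low values. SESN2, a stress-induced inhibitor of growth signalling, fell by 1.52 ± 0.20 from NP to LT (adjusted p = 0.000377, limma), and NUPR1, a stress-induced nuclear protein, fell by 0.62 ± 0.19 (adjusted p = 0.0184), which edgeR did not call. ASNS (asparagine synthetase) rose by 0.53 ± 0.12 from MT to LT (adjusted p = 0.0111). ATF5 had 2.56 to 5.58 TPM in NP and MT together and 15.2, 9.78, 42.6 and 94.3 in LT, a rise of 2.59 ± 0.63 with a wide spread (adjusted p = 0.0142).

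**Figure D5:**
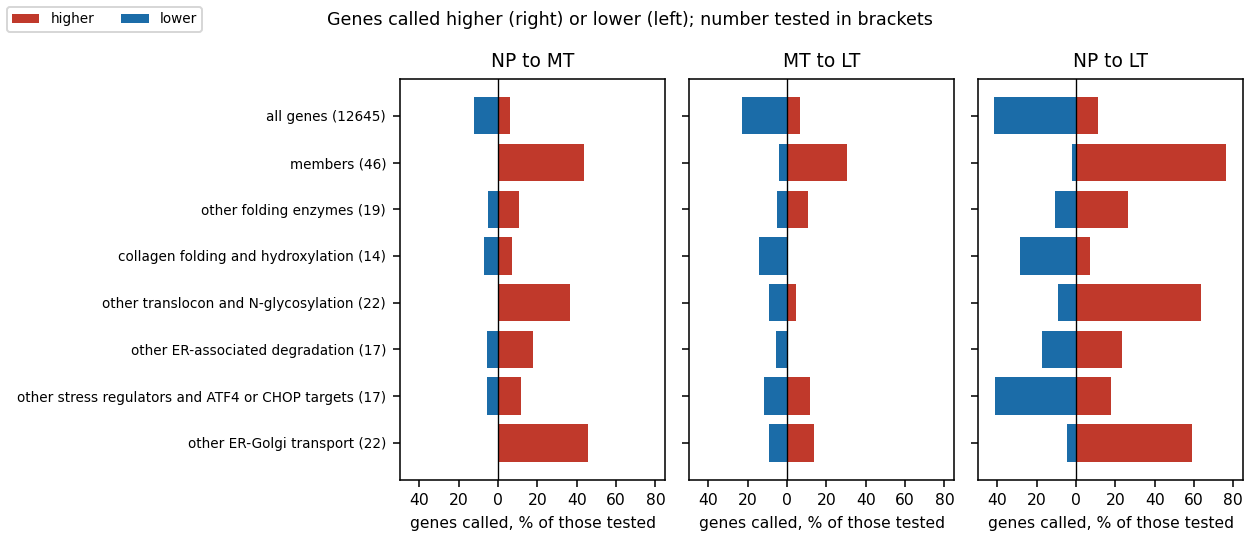
Share of genes called higher (right) and lower (left) by limma, in percent of those tested (horizontal), for all genes, for the 46 genes (members) and for 6 further lists (vertical, number tested in brackets) in each of the 3 comparisons. The 46 reach 76.1% higher from NP to LT, and the lists of translocon and N-glycosylation and of ER-Golgi transport reach 63.6% and 59.1%, against 11.2% of all genes.

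Markers of several cell types differed between the stages as well. Among all genes 6.27% rose and 12.2% fell from NP to MT, 6.73% and 22.7% from MT to LT, and 11.2% and 41.9% from NP to LT. Of 8 tested markers of mucus-secreting epithelium, 7 rose from NP to MT, 1 from MT to LT and all 8 from NP to LT, and their summed abundance ran from 143 to 516 TPM in NP, from 2490 to 5812 in MT and from 7866 to 9986 in LT. The most abundant were AGR2, itself a disulfide isomerase of the ER in mucus cells, with 104 to 219 TPM in NP and 5547 to 7559 in LT, FCGBP and MUC5B, while TFF1 was at 0 in all 10 animals and TFF2, TFF3 and ST6GALNAC1 were under 3 TPM in every stage. AGR2, the 1 marker called from MT to LT, went from a mean of 2255 to 6718 TPM and took most of the rise of the sum. At the same step FCGBP went from 702 to 1224 TPM and MUC5B from 730 to 340 (-1.02 ± 0.71, adjusted p = 0.3, limma). Within MT the lowest sum, 2490 TPM, was that of replicate 2, which was also the lowest MT animal for most of the 46 genes, and within NP the lowest, 143 TPM, was that of replicate 1, which was the highest for the chaperones. The highest MT sum, 5812 TPM, was that of replicate 1, whereas replicate 3 (4739 TPM) was the highest MT animal for 34 of the 46. Within LT the lowest sum, 7866 TPM, was that of replicate 1, whereas the lumenal chaperones summed lowest in replicate 3. The part of these markers in the result was not tested.

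Squamous epithelium was represented by 10 markers (KRT14, TP63 and DSG3 were the most abundant) with summed TPM of 3254 in NP replicate 1, 1053 and 1022 in the other NP animals, 171 to 1287 in MT and 1523 to 3022 in LT, and 3 of 8 tested fell from NP to MT. Plasma cell markers summed to 207 to 386 TPM in NP, 210 to 290 in MT and 343 to 440 in LT, with SDC1, which epithelium also carries, taking most before JCHAIN and PRDM1, and TNFRSF17, IRF4, FCRL5 and TNFRSF13B under 3 TPM in every stage. Of 5 tested, 0 rose and 1 fell from NP to LT, PRDM1 (-2.43, adjusted p = 0.00021, limma), from a mean of 20.7 to 2.84 TPM. The 1 fall is 20% of those tested, against 41.9% of all genes. Leukocyte markers summed to 4554 to 8407 TPM in NP, 9048 to 13391 in MT and 15046 to 19362 in LT, mostly as S100A9 and S100A8 and then CD68. From NP to LT 5 of 13 were called higher (38.5%, against 11.2% of all genes) and 2 lower (15.4%, against 41.9%). The median change of the 13 was -0.28, that of all genes tested, and 6 of the 13 were above 0. Endothelial markers (led by EMCN, CDH5 and ESAM) fell, with 8 of 8 lower from NP to LT, against 41.9% of all genes (177 to 240, 126 to 186 and 71.5 to 112 TPM). Fibroblast markers, led by COL1A1, COL1A2 and LUM (6120 to 10891, 5358 to 10135 and 6148 to 9240 TPM) had 0 of 7 higher and 3 lower from NP to LT (42.9%, against 41.9% of all genes). Smooth muscle markers, led by ACTG2, ACTA2 and TAGLN (8263 to 31042, 12750 to 19149 and 19187 to 39708 TPM) had 1 of 10 higher and 0 lower from NP to LT (10% and 0%, against 11.2% and 41.9% of all genes). The highest NP sum, 31042 TPM, was that of replicate 1, against 10665 and 8263 TPM in the other NP animals. NP replicate 1 also had the highest fibroblast sum of NP, 10891 TPM, against 6573 and 6120. Markers of the cervix and Mullerian tract were present in every animal, led by DES, ESR1 and EMX2 (1388 to 3773 TPM in sum), with 0 of 8 higher and 5 lower from NP to LT (62.5%, against 41.9% of all genes). The part of these cell types in the changes of the 46 genes was not tested.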

How the data were processed

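RNA of 10 cervices was sequenced as 1 strand-specific library per animal. According to the study's methods the authors aligned the reads to the guinea pig genome cavPor3 (Ensembl release 69) with TopHat2 and counted them per gene with HTSeq-count 0.5.4p1, and the submitters' processing notes also name CASAVA 1.8.2. The authors deposited 1 table with raw read counts per gene and TPM, which sums to 1000000 in each animal. The strand setting of the counting, the treatment of reads with several matches and the transcript lengths behind TPM are not given in the sources used here, and neither coordinates nor sequences are printed. Genes were matched by symbol.

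Differences were tested with limma 3.58.1 (R 4.3.3, trend) on log2(TPM + 1) in 1 fit of the 10 animals, over the 12645 genes whose mean reached 3 TPM in some stage. Tests were two-sided, and p-values were adjusted over all of these genes by the Benjamini-Hochberg method. Exact permutation tests, two-sided for pairs of stages, used square-root TPM, the scale of the study, and can reach no p below 0.1 for 3 animals against 3 and 0.0286 for 3 against 4, and 0.000476 for the F statistic. The alternatives were edgeR 4.0.16 (quasi-likelihood) and DESeq2 1.42.0 on the read counts, median-ratio scaling, quantile normalization, square-root TPM, other pseudocounts and filters, a fit of only 2 stages, a replicate block and leaving out each animal. The edgeR fit with the block was added after seeing the data. Procedures were tested on simulated data.

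The genes and all lists were chosen with earlier results of these data known. Values per animal are given for genes called in any comparison that are among the 30 most abundant of the 46 or among the 10 largest changes of a comparison, and always for HSPA5, XBP1, ATF4 and DDIT3. Of other lists the 2 most abundant genes and the largest called rise and fall are named, and of marker lists the 3 most abundant. SELS was looked up as VIMP after seeing the table. The study calls the animals of a stage biological replicates.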

Additional observations from a re-analysis of the deposited data

Results flagged for a closer look

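In late pregnancy, the stage with 4 animals, 47 genes (the 46 and VIMP) were searched for an animal far from the others, and 2 stood out, where chance gives about 1 in 20. CREB3L2 was at 33.7 TPM in LT replicate 3 and at 41.6 to 42.5 TPM in the other LT animals, a gap of 0.898 of the whole range. SEC61B was at 223 TPM in LT replicate 4 and at 206 to 209 TPM in the others, a gap of 0.841 of the range. Both genes keep their calls from MT to LT without the animal concerned.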

How the results depend on the processing

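No called value of the 35 genes given per animal changed sign over 22 alternatives (without the edgeR block). Of their 2310 values, 2091 kept their direction and their side of the threshold, 125 were no longer called, 52 became called and 42, of 12 genes not called in that comparison, changed sign, with 0 called in the other direction. Of their 65 calls, 43 were kept in every alternative. The changes of sign from MT to LT by scaling were, with median-ratio scaling, edgeR, edgeR with its own filter and DESeq2, 0.13, 0.13, 0.14 and 0.12 for SSR3 (-0.04 in TPM), 0.09, 0.07, 0.08 and 0.06 for SEC23B (-0.08) and 0.16, 0.16, 0.17 and 0.16 for SEC31A (-0.01). ATF4 from NP to MT (-0.11) became 0.02 with median-ratio scaling, 0.01 with edgeR and its own filter and 0.00 with DESeq2. With quantile normalization ATF4 became -0.02 from MT to LT and -0.17 from NP to LT, and from MT to LT DNAJC10 became -0.01, SEC61A1 -0.07 and SPCS2 -0.00. DNAJC10 was also -0.01 with a replicate block. Leaving out 1 animal took the sign across 0 from NP to MT for DNAJB11 (-0.02 to 0.20), from NP to LT for ERN1 (-0.02 to 0.29), ATF4 (-0.07 to 0.14) and CREB3L2 (-0.02 to 0.11), and from MT to LT for PDIA5 (-0.02 to 0.07), DNAJC10 (-0.07 to 0.09), SEC61A1 (-0.02 to 0.10), SPCS2 (-0.03 to 0.07), SEC23B (-0.23 to 0.08), SEC24D (-0.06 to 0.13) and SEC31A (-0.11 to 0.04).

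From NP to MT, 11 instead of 20 of the 46 genes were called when only the 2 stages were fitted. Leaving out 1 animal gave 10 to 24 calls from NP to MT (24, of which 2 fell, without NP replicate 1, 10 without MT replicate 3, 11 without NP replicate 2, 12 without NP replicate 3), 6 to 19 from MT to LT (6 without MT replicate 2, 9 without LT replicate 2) and 30 to 37 from NP to LT, with medians of 0.26 to 0.47, 0.12 to 0.25 and 0.48 to 0.58. The medians of the 46 moved with the scaling. From MT to LT the median was 0.32 with median-ratio scaling, 0.32 with edgeR, 0.33 with edgeR and its own filter and 0.31 with DESeq2, against 0.15 in TPM, and from NP to LT it was 0.78, 0.78, 0.80 and 0.78, against 0.49. With quantile normalization they were 0.14 and 0.59. The median was not computed on the square-root scale.

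The labels number the replicates of each stage without saying that a number marks a shared origin. The correlations of the deviations of same-numbered animals ran from -0.287 to 0.254, with 3 of 9 over 0.1, so the numbers were not taken as a pairing. With a replicate block the calls were 13 from NP to MT and 8 from MT to LT. In edgeR with a replicate block 17 rose and 0 fell, 12 rose and 2 fell, and 38 rose and 0 fell, and the medians were 0.31 from MT to LT and 0.79 from NP to LT.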
